A study of Saccharomyces cerevisiae with 24 samples.

Results

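The genes described are 44 Saccharomyces cerevisiae genes for enzymes and helper proteins that modify, splice or finish transfer RNA (tRNA). They were chosen by symbol from a list of 45 names, of which PUS3 and DEG1 name the same gene (YFL001W), and they stand among 5449 genes with a probe set on the array. Every one of the 44 has a probe set of its own, passed the filter on low signal and lay above the background on all 24 arrays, so no gene of the list was lost and the counts below are over all 44. The study compared 4 haploid yeast strains: the wild type BY4741, a strain without PBF1 (standard name TOD6), a strain without PBF2 (standard name DOT6), and a strain without both. Each strain was grown at 25 °C, sampled at 0 min, and sampled again 20 min after a shift to 37 °C, with 3 arrays in each of the 8 groups of strain and time. Per the labels, cells of a culture were divided between the time points, so replicates are cultures. The sources used here do not say how the strains were made or from how many independent clones.

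A tRNA is made by RNA polymerase III as a longer precursor. Its ends are trimmed, an intron is cut out where there is one, the CCA end is added, and many of its bases and riboses are then altered by dedicated enzymes. Modifications in the anticodon loop affect decoding and reading frame, and those in the body of the molecule affect folding and stability. TOD6 and DOT6 encode related DNA-binding proteins that recognise the PAC element, a short promoter motif found before many genes of ribosome and tRNA production, and both are known as repressors of such genes under stress.

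Values are microarray signals scaled by the authors so that every array has about the same overall level. They measure messenger RNA in a bulk culture relative to the rest of the messenger RNA on that array. Fewer cells of a kind and less RNA per cell cannot be told apart, and neither can a change in total RNA. Changes are differences in log2 signal with the standard error from limma, a linear model fitted to all 5395 genes tested and all 24 arrays. A gene is said to rise, fall or differ where the p-value adjusted over all genes tested by Benjamini-Hochberg is below 0.05. Counts of genes by 2-fold size, by overlap of arrays, by sign or by unadjusted p-value cover the listed genes only. The same counts over all genes tested are not given here. The deleted genes matched the labels: TOD6 (YBL054W) was at background on every array of the pbf1 deletion and of the double deletion. DOT6 (YER088C) was at background on every array of the pbf2 deletion and on all but 1 of the double deletion, where replicate 2 at 0 min read 11.9 against 778 to 946 in the wild type at that time. The a-cell markers MFA1, MFA2, STE2, BAR1, AGA2 and STE6 were above background on all 24 arrays, and BY4741 is an a-type strain. They were not level between the strains: AGA2 read 339, 441 and 389 in the double deletion against 1899, 1881 and 2163 in the wild type at 0 min, and MFA1 1197, 1247 and 1241 against 3752, 3421 and 3529. Of the 6, these 2 were lower in the double deletion at 0 min by the test used below, with -2.35 ± 0.27 and -1.54 ± 0.18, and all 6 were lower at 20 min, from -1.28 ± 0.27 for AGA2 to -0.73 ± 0.15 for STE6. Their part in the strain differences was not tested. Of 4 alpha-cell genes, SAG1 was the highest, with 114 to 214, and SAG1 and STE3 were above background on every array too. MF(ALPHA)2 was above it on every array but replicate 1 of the pbf1 deletion at 0 min, which read 7.2. The pheromone gene MF(ALPHA)1 was above background on 2 arrays only. URA3, which BY4741 lacks, was at background in the other strains and read 1886, 1737 and 1746 in the double deletion at 0 min and 846, 922 and 695 at 20 min. URA3 message thus moved with the double deletion, and its part was not tested either. Of the other genes listed as absent from BY4741, LEU2 and MET17 read at most 37.6 and 16.3 on any array. HIS3, listed with them, read 1049 to 1574 over all arrays, the wild type among them. Of the deleted loci, TOD6 lies 31 genes from the nearest of the 44 genes, NCL1, and DOT6 lies 94 genes from CCA1.

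In the wild type, heat shock lowered the messenger RNA of most of these genes. Of the 44 genes, 36 fell, 1 rose and 7 did not pass the test, against 29.7% of all genes tested that fell and 51.0% that rose. Other scalings gave more falls. They numbered 41 with quantile normalization and 40 with arrays centred on their median. Centring on the hybridization controls gave 41, and on the poly(A) controls (spiked-in bacterial transcripts) 42. Some of the 7 thus fell under other scalings. The median change was -0.93 over the 44 genes and 0.27 over all genes, and 20 of the 44 fell at least 2-fold. Signal at 0 min and at 20 min did not overlap between the 3 arrays of each time for 40 of the 44 genes. The same count over all genes tested is not given here, and most of those changed too, by the shares above. The plot of heat shock changes by strain sets all 44 genes side by side.

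**Figure D1:**
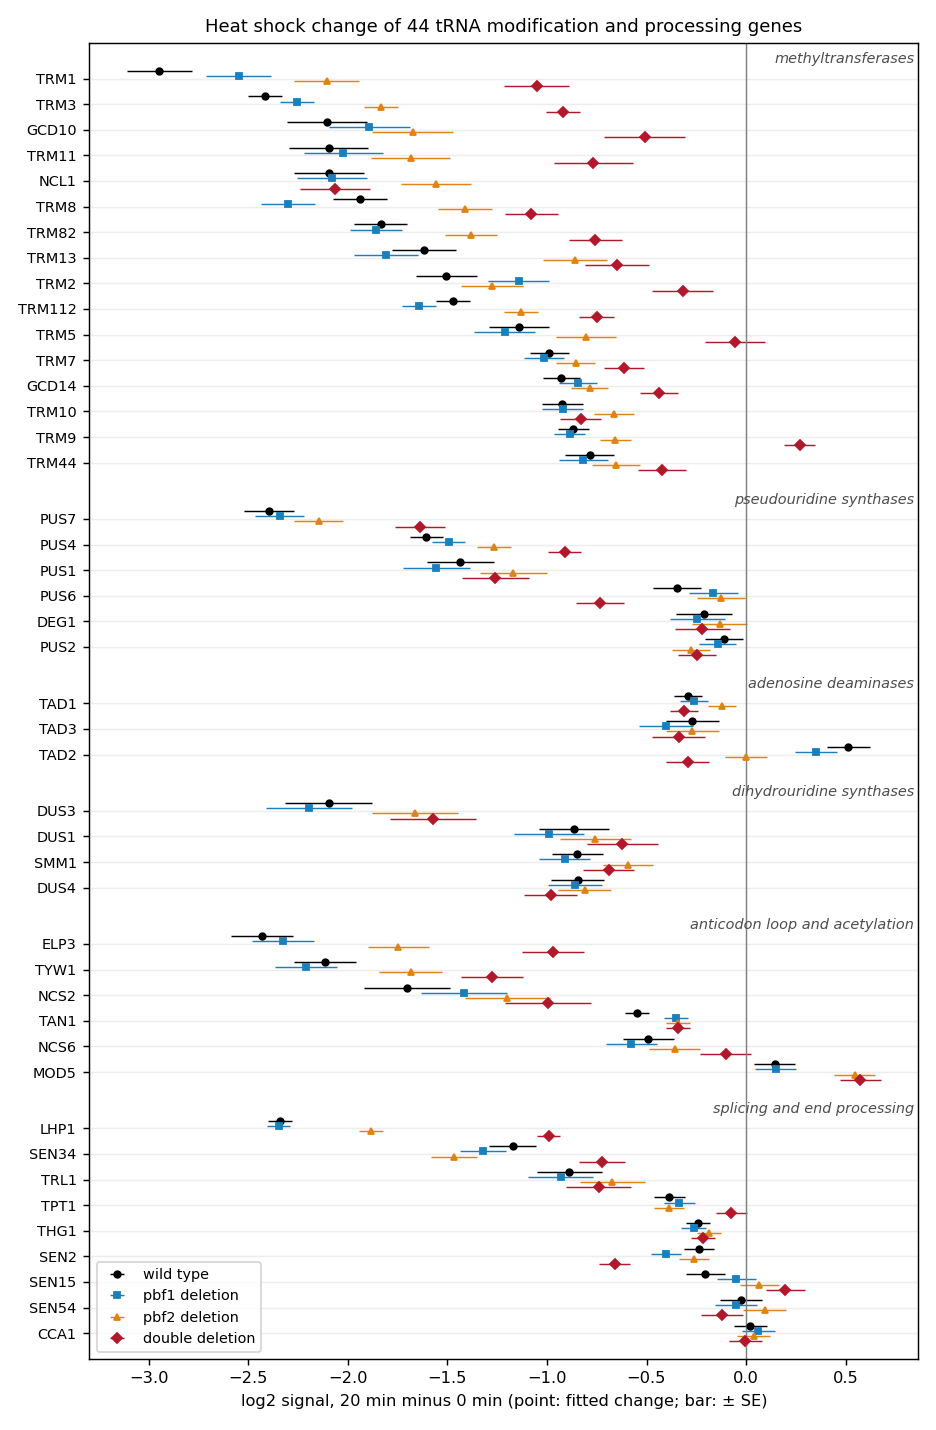
Heat shock change in log2 signal (20 min minus 0 min, x axis) for each of the 44 genes (rows, grouped by role and ordered by the wild type value) in the wild type (black circles), the pbf1 deletion (blue squares), the pbf2 deletion (orange triangles) and the double deletion (red diamonds); bars are ± the standard error of limma, 3 arrays per group. Most genes lie left of 0 in all strains, and the red diamonds of many methyltransferases lie to the right of the other strains.

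The tRNA methyltransferases and their partner subunits gave the lowest median of the roles. All 16 fell in the wild type, with a median change of -1.56 and a range from -2.95 to -0.79, and 11 of the 16 fell at least 2-fold. TRM1, which dimethylates a guanosine at the hinge of the tRNA body, fell by 2.95 ± 0.16 (limma adjusted p = 5.66e-13). Its signal was 1755, 1558 and 1435 at 0 min and 308, 175 and 159 at 20 min, which left 13.0% of the level before heat shock. The first culture kept more TRM1 message than the other two, with culture changes of -2.51, -3.16 and -3.18, but no array at 20 min came near those at 0 min.

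TRM3, the ribose methyltransferase of the D loop, went from 1327, 1243 and 1163 to 252, 241 and 209 and fell by 2.41 ± 0.08 (limma adjusted p = 5.48e-16). GCD10 and GCD14, the non-catalytic and catalytic subunits of the enzyme that methylates the T-loop adenosine of the initiator and other tRNAs, changed by -2.10 ± 0.20 and -0.93 ± 0.09. GCD10 signal was 1363, 1313 and 1067 at 0 min and 387, 269 and 231 at 20 min. TRM8 and TRM82, the catalytic subunit and partner that methylate a guanosine of the variable loop, fell by similar amounts, with changes of -1.94 ± 0.13 and -1.84 ± 0.13. TRM112, the small partner protein that several methyltransferases share, fell by 1.47 ± 0.09, and its partners TRM11, which methylates a guanosine by the D stem, and TRM9, for the last step on wobble uridines, changed by -2.10 ± 0.20 and -0.87 ± 0.08.

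TRM11 signal was 630.5, 566 and 506 before and 196, 116 and 102 after heat shock in the wild type, and TRM2, which makes the ribothymidine of the T loop, went from 973, 861 and 673 to 383, 237 and 272. NCL1, which makes methylcytidine, went from 2378, 2366 and 2123 to 675, 466 and 487. In all these genes the highest array at 20 min lay below the lowest at 0 min. The methyltransferase genes not yet named also fell, with changes of -1.62 ± 0.16 for TRM13, which acts on the acceptor stem, and -1.14 ± 0.15 for TRM5, which methylates the guanosine beside the anticodon. TRM7, for anticodon-loop riboses, changed by -0.99 ± 0.10, TRM10, which methylates a guanosine of the body, by -0.92 ± 0.10, and TRM44, for serine tRNA, by -0.79 ± 0.12.

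Among the 6 pseudouridine synthases, which turn uridine into pseudouridine, 4 fell and none rose. PUS7 fell by 2.40 ± 0.12, from 1973, 1895 and 2000.2 to 429, 351 and 341. PUS4, for the T-loop uridine, fell by 1.61 ± 0.08, and PUS1, which acts at many positions, fell by 1.44 ± 0.17, while PUS6 fell by 0.35 ± 0.12. PUS2, a mitochondrial enzyme, and DEG1, which acts on the anticodon arm, gave -0.11 ± 0.09 and -0.21 ± 0.14 and did not pass the test. All 4 dihydrouridine synthases, which reduce uridines of the D and variable loops, fell: DUS3 gave -2.10 ± 0.22, DUS1 -0.86 ± 0.18, SMM1 -0.85 ± 0.13 and DUS4 -0.84 ± 0.13.

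Of the genes for anticodon-loop modification and acetylation, 5 of 6 fell. ELP3, the catalytic subunit of Elongator, which builds side chains on wobble uridines, went from 1365, 1422 and 1370.4 to 361, 233 and 201, a fall of 2.43 ± 0.16 (limma adjusted p = 6.11e-12). TYW1, an enzyme of wybutosine synthesis, went from 676, 715 and 556 to 139, 184 and 129.6 and fell by 2.11 ± 0.16. NCS2 and NCS6, which act together in wobble uridine thiolation, changed by -1.70 ± 0.22 and -0.49 ± 0.13. The fall of NCS2 was the larger in value, and the difference between the genes was not tested. TAN1, needed for cytidine acetylation, fell by 0.55 ± 0.06. MOD5, which adds the isopentenyl group beside the anticodon, gave 0.14 ± 0.10 and did not pass the test.

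The adenosine deaminases, which make inosine, did not move together. TAD2, the catalytic subunit of the wobble deaminase, was the only 1 of the 44 genes to rise in the wild type, by 0.51 ± 0.11 (limma adjusted p = 0.000179), from 572, 541 and 528 to 676, 748 and 939. The rise was 0.21 and did not pass the test (limma adjusted p = 0.166) with arrays centred on the hybridization controls, and turned to -0.49 with arrays centred on the poly(A) controls, which are spiked-in bacterial transcripts. Its partner subunit TAD3 gave -0.27 ± 0.13 and did not pass the test, and TAD1, for alanine tRNA, fell by 0.29 ± 0.07.

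Of the 9 splicing and end processing genes, 6 fell and none rose. LHP1, the La protein that binds the ends of new RNA polymerase III transcripts, fell by 2.34 ± 0.06 with the smallest standard error of the 44 genes (limma adjusted p = 3.24e-18), from 2583, 2668 and 2491 to 538, 512 and 479. Of the subunits of the tRNA splicing endonuclease, SEN34 and SEN2, both catalytic, changed by -1.17 ± 0.12 and -0.24 ± 0.08 and passed, while SEN15 and SEN54 gave -0.21 ± 0.10 and -0.03 ± 0.11 and did not pass the test. The tRNA ligase TRL1 changed by -0.89 ± 0.16, the splice-junction phosphotransferase TPT1 by -0.38 ± 0.08, and THG1, which adds the extra guanosine of histidine tRNA, by -0.24 ± 0.06, and all 3 fell. CCA1, which adds the CCA end, gave 0.02 ± 0.08, with a 95% interval of -0.15 to 0.20.

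The same genes mostly fell in the deletion strains. Without PBF1, 36 of the 44 fell and 1 rose, with a median of -0.96 (30.4% of all genes fell and 51.2% rose). Without PBF2, 35 fell and 1 rose, with a median of -0.80 (30.1% and 48.4% of all genes), and without both, 34 fell and 2 rose, with a median of -0.65 (30.9% and 48.5% of all genes). TAD2 was the gene that rose without PBF1, by 0.35 ± 0.11, but this was 0.19, 0.15 and 0.07 and did not pass the test with quantile normalization, median centring and hybridization control centring (limma adjusted p = 0.103, 0.179 and 0.637), and it turned to -0.88 with poly(A) centring. The strains thus had similar counts of falls, and 29 genes fell in all 4 strains. Falls of at least 2-fold numbered 20 in the wild type, 21 without PBF1, 18 without PBF2 and 7 without both. Neither these counts nor the 29 are set beside all genes tested. The median change of the 44 genes in the single cultures was -0.86, -1.03 and -0.89 for the wild type, -0.97, -0.97 and -1.05 without PBF1, -0.83, -0.82 and -0.69 without PBF2, and -0.58, -0.69 and -0.62 without both, so the cultures of the double deletion lay above those of the wild type and of the pbf1 deletion and met those of the pbf2 deletion at -0.69. Relative to the median of all genes, which other scalings of the arrays moved in the wild type to between -0.74 and 0.08, the median of the 44 genes lay between -1.27 and -1.19 in the wild type and between -0.86 and -0.82 in the double deletion under all scalings tried.

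In the double deletion the heat shock fall of many of these genes was smaller than in the wild type. URA3, AGA2 and MFA1 signal also differed between these strains, and their part was not tested. The response of the double deletion minus that of the wild type was higher for 21 of the 44 genes and lower for 2, against 15.0% and 12.8% of all genes tested, with a median of 0.40 over the 44 genes and 0.00 over all genes. All but 2 of the 21 were genes that fell in the wild type, and 10 of the 21 differed at least 2-fold. The methyltransferases made up 12 of the 21, with a median difference of 1.02 over all 16. The pseudouridine synthases gave 2, the anticodon-loop genes 3, the splicing and end processing genes 4, and the dihydrouridine synthases and adenosine deaminases none. With poly(A) centring 0 of the 44 passed in this comparison (6 at an unadjusted p under 0.05). The mean log2 signal of these controls ranged over 0.27 to 1.17 among the 3 arrays of each group compared. The other scalings left 19 higher and 2 lower with quantile normalization, 17 and 3 with median centring, and 16 and 1 with hybridization control centring. The differences by gene and strain are drawn in the plot of response differences.

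**Figure D2:**
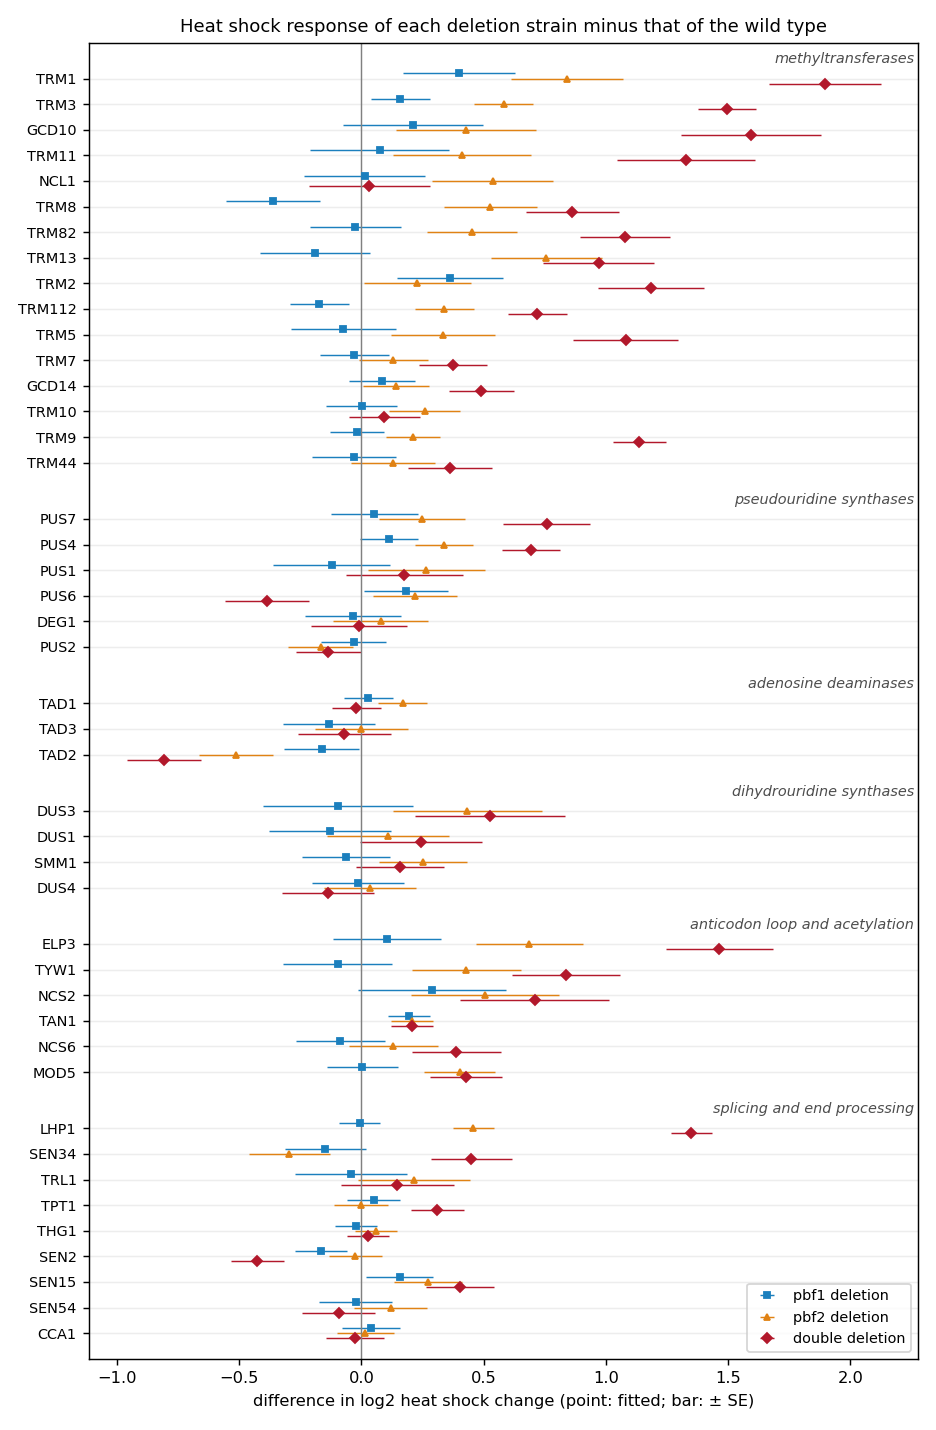
Heat shock response of each deletion strain minus that of the wild type (difference in log2 change, x axis) for the 44 genes (rows as in the plot of heat shock changes); blue squares are the pbf1 deletion, orange triangles the pbf2 deletion and red diamonds the double deletion, and bars are ± the standard error of limma. The blue squares scatter about 0, and the red diamonds of TRM1, GCD10, TRM3, ELP3, LHP1 and TRM11 lie beyond 1.3.

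TRM1 gave the largest difference. Its signal in the double deletion was 2401, 2512 and 2057 at 0 min and 1127, 1105 and 1119.6 at 20 min, so 48.3% of the level remained, and the response differed from that of the wild type by 1.90 ± 0.23 (limma adjusted p = 3.36e-06). TRM1 in the single deletions fell to 380.4, 336 and 283 in the pbf1 deletion, from 1960.1, 2001 and 1842, and to 374, 379.8 and 378 in the pbf2 deletion, from 1808, 1555 and 1527. At 20 min the strains were thus ordered wild type, pbf1 deletion, pbf2 deletion and double deletion by mean; arrays of the wild type and the pbf1 deletion overlapped, as did those of both single deletions, and all 3 of the double deletion lay far above the rest.

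GCD10 kept 70.3% of its message in the double deletion against 23.3% in the wild type, a response difference of 1.59 ± 0.29 (limma adjusted p = 0.000285). GCD10 signal in the double deletion was 1996, 1859 and 1688 before and 1523, 1342 and 1064 after heat shock. In the pbf1 deletion GCD10 went from 1476, 1366 and 1459 to 560.1, 330.3 and 311, and in the pbf2 deletion from 1439, 1248 and 1055 to 475, 361 and 339.8. Its catalytic partner GCD14 showed a smaller difference, 0.49 ± 0.13 (limma adjusted p = 0.0087).

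TRM3 and LHP1 gave the smallest adjusted p-values in this comparison, and they are also the 2 genes whose response differed in the pbf2 deletion. TRM3 signal in the double deletion was 1662, 1629.9 and 1509 at 0 min and 856, 869.6 and 814 at 20 min, and its response difference was 1.50 ± 0.12 (limma adjusted p = 1.26e-08). TRM3 in the pbf2 deletion went from 1523, 1354 and 1233 to 364, 376 and 411, and in the pbf1 deletion from 1322, 1462 and 1469 to 313, 302 and 277. At 20 min the TRM3 arrays of the 4 strains formed 4 separate ranges, in the order wild type, pbf1 deletion, pbf2 deletion and double deletion.

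LHP1 signal in the double deletion was 3544, 3533 and 3465 before and 1807, 1671 and 1828 after heat shock, which left 50.3% of the level against 19.7% in the wild type, a response difference of 1.35 ± 0.08 (limma adjusted p = 3.66e-10). LHP1 went from 2613, 2539 and 2362 to 705, 665 and 665 in the pbf2 deletion and from 3063, 3003 and 2928 to 617, 551 and 600.3 in the pbf1 deletion. Its 20 min arrays in the pbf1 deletion all lay above those of the wild type, yet its 0 min arrays did too, and the response difference there was -0.01 ± 0.08.

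**Figure D3:**
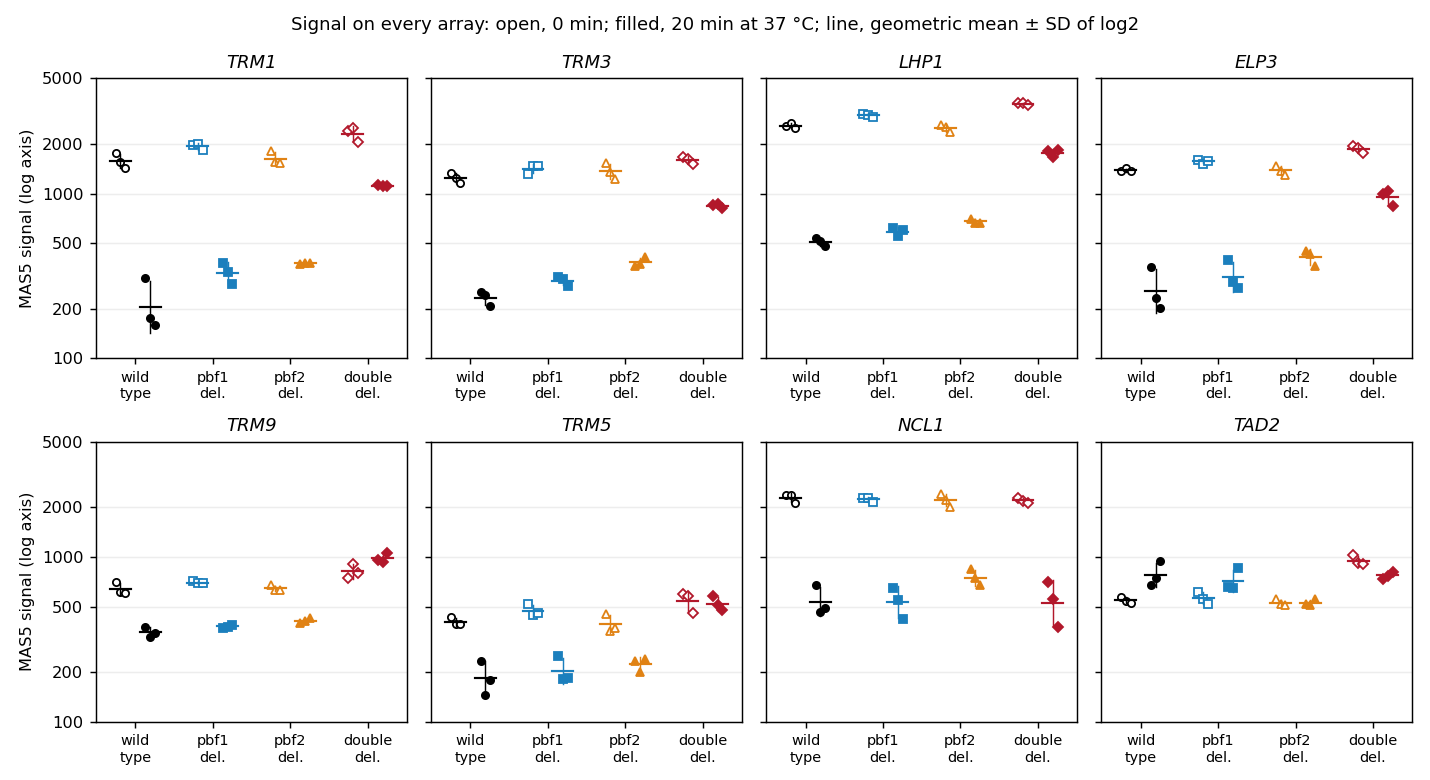
MAS5 signal (log axis) on every array for 8 of the 44 genes in the 4 strains; open symbols are 0 min, filled symbols 20 min, and lines are the geometric mean ± SD of log2 signal, 3 arrays per group. At 20 min the double deletion stands above the other strains for TRM1, TRM3, LHP1, ELP3, TRM9 and TRM5, and does not for NCL1 and TAD2.

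ELP3 in the double deletion was 1938, 1897 and 1756 at 0 min and 992, 1031 and 843 at 20 min, and its response differed by 1.46 ± 0.22 (limma adjusted p = 4.31e-05). ELP3 went from 1596, 1522 and 1582 to 393, 291 and 266 in the pbf1 deletion and from 1476, 1376 and 1305 to 447, 432 and 364 in the pbf2 deletion. TRM11 in the double deletion was 1090.0, 976 and 818 and then 597, 546 and 542, with a difference of 1.33 ± 0.28 (limma adjusted p = 0.00137). All 3 heat-shocked arrays of the double deletion stood above every heat-shocked array of the other strains for both genes. TRM11 in the single deletions went from 774, 664 and 673 to 235, 148 and 149 without PBF1 and from 663, 598 and 525 to 219.5, 155 and 185 without PBF2.

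Some genes hardly fell, or did not fall, in the double deletion at the authors' scaling. Falls in this strain numbered 34 at that scaling and 40 with quantile normalization. They numbered 41, 38 and 42 with median, hybridization control and poly(A) centring, so a missing fall depended on the scaling. TRM9 was 747, 911 and 801 at 0 min and 963, 937 and 1057 at 20 min there, with no overlap. It rose by 0.27 ± 0.08, but this was 0.08 and 0.00 with quantile normalization and median centring, and -0.01 and -0.88 with arrays centred on the hybridization and poly(A) controls. In the wild type it fell by 0.87 ± 0.08, from 704, 609.9 and 602 to 377, 325 and 347. The response difference itself was 1.14 ± 0.11 (limma adjusted p = 1.44e-07). TRM9 without PBF1 went from 713, 691 and 694 to 373, 377 and 386, and without PBF2 from 673, 632 and 631 to 395, 407 and 426. It fell in both single deletions, with changes of -0.89 ± 0.08 and -0.66 ± 0.08.

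TRM5 gave -0.06 ± 0.15 in the double deletion and did not pass the test, with signals of 594, 577 and 459 and then 579, 509 and 475. In the wild type it went from 429, 392 and 389 to 235, 145 and 180.1. Its response difference was 1.08 ± 0.21 (limma adjusted p = 0.000717). TRM2 gave -0.32 ± 0.15 and did not pass the test in the double deletion either, with 1487, 1423 and 1270.4 before and 1091, 1027 and 1236 after heat shock, and a response difference of 1.19 ± 0.22 (limma adjusted p = 0.000352). TRM2 in the single deletions went from 1057, 1000.1 and 899 to 485, 396 and 460.2 without PBF1 and from 1086, 856 and 810.4 to 399.6, 338 and 393 without PBF2.

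The other methyltransferase genes with a higher response were TRM82, by 1.08 ± 0.19, TRM13, by 0.97 ± 0.23, TRM8, by 0.86 ± 0.19, and TRM112, by 0.72 ± 0.12. TRM7 and TRM44 gave 0.37 ± 0.14 and 0.36 ± 0.17 and did not pass the test. NCL1, which changed by -2.10 ± 0.18 in the wild type, fell by 2.06 ± 0.18 in the double deletion, from 2277, 2195 and 2137 to 702, 554 and 377. Its response difference was 0.03 ± 0.25, with a 95% interval of -0.48 to 0.55. The fitted values of TRM1, GCD10, TRM3, ELP3, LHP1 and TRM11 lay outside this interval, and the difference between NCL1 and those genes was not tested. TRM10 gave 0.09 ± 0.15, with an interval of -0.21 to 0.40.

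In the other roles, PUS7 and PUS4 had a higher response, by 0.76 ± 0.18 and 0.70 ± 0.12. PUS7 in the double deletion was 2385, 2630.1 and 2301 at 0 min and 888, 895 and 602 at 20 min, with the third array at 20 min below the other two. PUS7 went from 2247, 2065 and 2175 to 502, 410.0 and 376 without PBF1 and from 2192, 2026 and 1862 to 461, 462 and 446 without PBF2, where its response differences of 0.05 ± 0.18 and 0.25 ± 0.18 did not pass the test. TYW1 differed by 0.84 ± 0.22 (limma adjusted p = 0.0073), from 1264, 1192 and 862 to 482, 493 and 384 in the double deletion, and MOD5 by 0.43 ± 0.15. The MOD5 difference did not pass with quantile normalization, median centring or hybridization control centring (limma adjusted p = 0.0838, 0.0728 and 0.155), nor without any one of 7 of the 12 arrays compared.

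TYW1 without PBF1 went from 793, 989 and 685 to 164, 188 and 175, and without PBF2 from 908, 834 and 879 to 238, 281 and 299, where all arrays lay above those of the wild type at the same time. MOD5 rose by 0.55 ± 0.10 in the pbf2 deletion and by 0.57 ± 0.10 in the double deletion; these rises were 0.30 and 0.30 and did not pass the test (limma adjusted p = 0.0696 and 0.0706) with centring on the hybridization controls, and turned to -0.18 and -0.57 with centring on the poly(A) controls. NCS2 gave 0.71 ± 0.30, NCS6 0.39 ± 0.18 and TAN1 0.21 ± 0.09, none of which passed the test. The splicing genes SEN34, SEN15 and TPT1 differed by 0.45 ± 0.17, 0.40 ± 0.14 and 0.31 ± 0.11. SEN34 passed narrowly (limma adjusted p = 0.0478), and it did not pass with median or hybridization control centring (limma adjusted p = 0.0811 and 0.161) or with the culture as a replicate block (limma adjusted p = 0.108). SEN15 and TPT1 did not pass with quantile normalization, median centring or hybridization control centring, and each of the 3 was lost without any one of 5 to 7 of the 12 arrays compared. GCD14 and SEN2 did not pass with hybridization control centring (limma adjusted p = 0.126 and 0.181).

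TAD2 and SEN2 were the 2 genes with a lower response in the double deletion. TAD2 was 1025, 923 and 903 at 0 min and 739, 771 and 815 at 20 min there, a fall of 0.29 ± 0.11 against the rise in the wild type, and a response difference of -0.81 ± 0.15 (limma adjusted p = 0.000455). Without PBF1, TAD2 went from 616, 553 and 521 to 659.8, 649.8 and 859, and without PBF2 from 554, 516 and 513 to 516, 512 and 554. The double deletion thus started above every other strain and ended within the range of the wild type, and in the pbf2 deletion the arrays of the times overlapped. SEN2 fell from 462, 495 and 454 to 312, 309.6 and 272 in the double deletion and from 428, 453 and 427 to 393, 362 and 357 in the wild type, a difference of -0.42 ± 0.11 (limma adjusted p = 0.00528). SEN2 in the single deletions went from 410.1, 451 and 441 to 339.7, 291 and 358 without PBF1 and from 411, 423 and 415 to 364, 338 and 340.3 without PBF2.

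Few genes passed in the single deletions. For the pbf1 deletion minus the wild type, limma called 0 of the 44 genes and 0% of all genes tested; 1 of the 44 had an unadjusted p under 0.05, and the values ran from -0.36 (TRM8) to 0.40 (TRM1). For the pbf2 deletion, 2 of the 44 were higher and none lower, against 1.50% and 0.204% of all genes tested. The 2 were TRM3, by 0.58 ± 0.12 (limma adjusted p = 0.0157), and LHP1, by 0.46 ± 0.08 (limma adjusted p = 0.00695). The median over the 44 genes was 0.24 against -0.02 over all genes. Of the 44 values 38 were positive, and 13 had an unadjusted p under 0.05, TRM1 among them with 0.84 ± 0.23 (limma adjusted p = 0.0716). The shares of all genes with a positive value or such a p-value are not given here.

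The count for the pbf2 deletion depended on single arrays and on the fit. It was 4 with the culture as a replicate block, 7 with the replicate number shared over all groups as a block, 7 higher and 1 lower without replicate 1 of the wild type at 20 min, and 1 without replicate 1 of the wild type at 0 min, replicate 3 of the wild type at 20 min or replicate 3 of the pbf2 deletion at 0 min. Quantile normalization gave 2 higher and 1 lower, and centring on the hybridization or the poly(A) controls gave 0 (8 and 0 at an unadjusted p under 0.05). Replicate 1 was the highest of the 3 arrays for 31 of the 44 genes in the wild type at 20 min, 70.5% against 38.3% of all genes tested, and for 23 to 31 of the 44 in every group. Apart from the fit with the replicate number as a block, the part of this in the counts was not tested.

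Whether the response difference of the double deletion departs from the sum of those of the single deletions was asked on the log2 scale. The response departed from that sum for 4 of the 44 genes, all above it, against 4.23% of all genes tested in either direction. They were TRM9, by 0.94 ± 0.15 (limma adjusted p = 0.00141), LHP1, by 0.90 ± 0.12 (limma adjusted p = 0.000118), SEN34, by 0.89 ± 0.23 (limma adjusted p = 0.0332), and TRM3, by 0.75 ± 0.17 (limma adjusted p = 0.015). For LHP1 the response differences were -0.01 ± 0.08 and 0.46 ± 0.08 in the single deletions and 1.35 ± 0.08 without both. For TRM9 they were -0.02 ± 0.11 and 0.21 ± 0.11, and 1.14 ± 0.11 without both. SEN34 gave -0.15 ± 0.17 and -0.29 ± 0.17 in the single deletions, of opposite sign to the 0.45 ± 0.17 without both, and its departure did not pass with the culture as a replicate block (limma adjusted p = 0.0936). GCD10 gave the largest value, 0.95 ± 0.41, and did not pass the test (limma adjusted p = 0.203), and PUS6 gave the most negative, -0.79 ± 0.24, and did not pass the test. With centring on the hybridization controls or on the poly(A) controls none of the 44 passed (5 and 0 at an unadjusted p under 0.05).

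At 25 °C, before heat shock, the double deletion already held more of these messages. Of the 44 genes 20 were higher than in the wild type and none lower, against 8.47% of all genes tested that were higher and 24.4% that differed in either direction, with a median of 0.29 over the 44 and -0.05 over all genes. None of the 44 differed at least 2-fold. TAD2 was the highest, by 0.80 ± 0.11 (limma adjusted p = 2.15e-05), followed by TYW1, by 0.76 ± 0.16, TRM11, by 0.76 ± 0.20, and TRM2, by 0.75 ± 0.15. LHP1 was higher by 0.45 ± 0.06 (limma adjusted p = 1.71e-05), and its 3 double deletion arrays at 0 min lay above all other arrays of that time. The dihydrouridine synthases DUS1 and SMM1, whose response did not pass the test, were higher by 0.60 ± 0.18 and 0.57 ± 0.13. The count was 6 with centring on the hybridization controls and 0 with centring on the poly(A) controls (8 at an unadjusted p under 0.05), and it was 10 without replicate 3 of the wild type at 0 min, 10 without replicate 1 and 12 without replicate 2 of the double deletion at 0 min.

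At 0 min limma called 0 of the 44 genes in the pbf1 deletion and 0 in the pbf2 deletion, against 0.111% and 0.241% of all genes tested; 6 and 1 of the 44 had an unadjusted p under 0.05. The values ran from -0.24 to 0.33 without PBF1 and from -0.11 to 0.44 without PBF2. TYW1 was the highest in both, with 0.33 ± 0.16 and 0.44 ± 0.16.

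After 20 min at 37 °C the strains were further apart. In the double deletion 29 of the 44 genes were higher than in the wild type and 2 lower, against 20.9% and 32.4% of all genes tested, with a median of 0.70 over the 44 and -0.09 over all genes, and 15 of the 29 differed at least 2-fold. TRM1 was higher by 2.45 ± 0.16 (limma adjusted p = 9.86e-11), GCD10 by 2.17 ± 0.20 and TRM11 by 2.09 ± 0.20. All 21 genes with a higher response in the double deletion were among the 29, and 14 of the 21 were also higher at 0 min. In all, 18 genes were higher at both times. The 2 lower genes were PUS6, with -0.57 ± 0.12, and SEN2, with -0.32 ± 0.08. PUS6 read 176, 115 and 142 in the double deletion and 229, 234 and 177 in the wild type at 20 min, and the groups lay next to each other without overlap. At 0 min PUS6 read 228, 234 and 248 and 242, 267 and 302, with no call.

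PUS6 in the single deletions went from 227, 219 and 239 to 215, 205 and 192 without PBF1 and from 263, 254 and 261 to 239.7, 232 and 242 without PBF2. In the plot of strain differences at both times, most genes lie above the line of equal difference, and TAD2 lies far below it with 0.80 ± 0.11 at 0 min and -0.01 ± 0.11 at 20 min. The wobble deaminase partner TAD3 gave 0.07 ± 0.13 and 0.00 ± 0.13. With centring on the poly(A) controls 15 of the 44 still passed at 20 min, all higher.

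**Figure D4:**
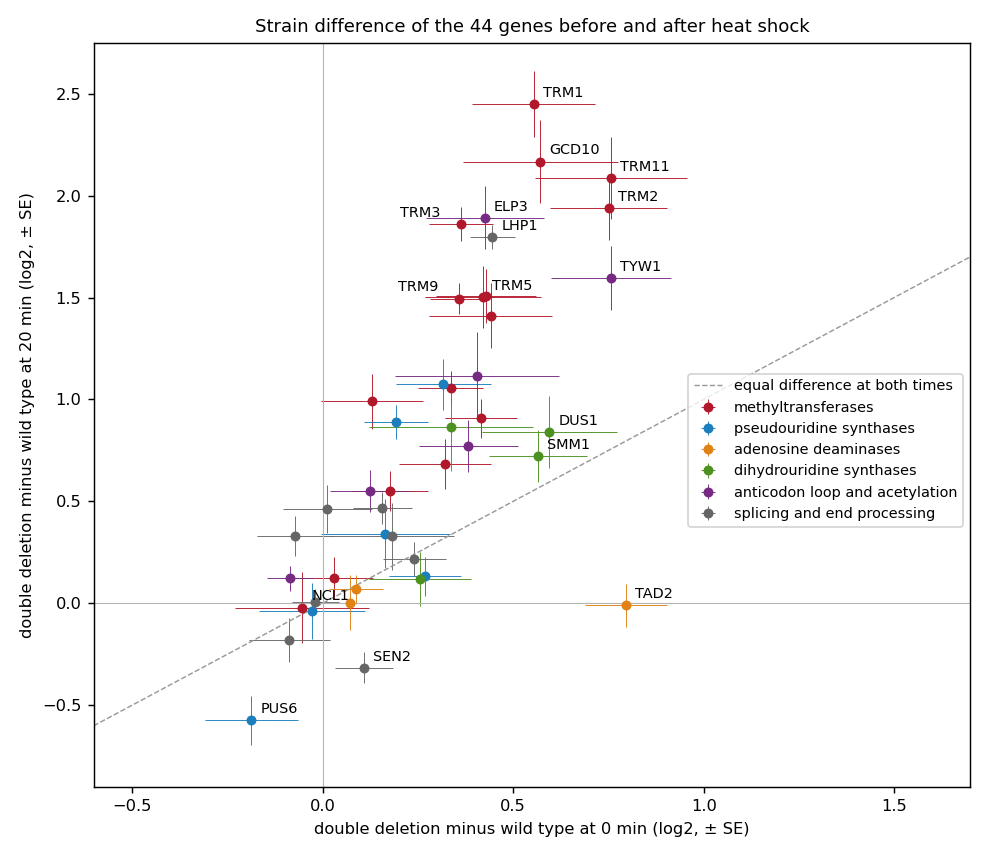
Difference between the double deletion and the wild type at 0 min (x axis) and at 20 min (y axis), in log2 signal ± the standard error of limma, for the 44 genes coloured by role; the dashed line marks an equal difference at both times. TRM1 is highest at 2.45 after heat shock and 0.55 before, and TAD2 lies at the right edge of the points with -0.01 after heat shock.

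In the pbf2 deletion at 20 min 11 of the 44 genes were higher than in the wild type and 1 lower, against 8.64% and 4.62% of all genes tested. All 11 were also higher in the double deletion at that time. They included TRM1, by 0.88 ± 0.16 (limma adjusted p = 0.0014), TYW1, by 0.87 ± 0.16, TRM3, by 0.72 ± 0.08 (limma adjusted p = 1.47e-05), ELP3, by 0.69 ± 0.16, and LHP1, by 0.41 ± 0.06 (limma adjusted p = 0.000148). The lower gene was TAD2, with -0.57 ± 0.11 (limma adjusted p = 0.00169). The comparisons share the wild type arrays. The total of 12 was 22 without replicate 1 of the wild type at 20 min, 7 without replicate 3 of the wild type at 20 min, 19 with the replicate number shared over all groups as a block, 4 with only the arrays compared and 0 with centring on the poly(A) controls (2 at an unadjusted p under 0.05).

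In the pbf1 deletion at 20 min limma called 0 of the 44, against 0.630% of all genes tested, and 7 of the 44 had an unadjusted p under 0.05. TRM1 came closest, with 0.69 ± 0.16 (limma adjusted p = 0.054). Same-numbered 20 min arrays of different strains deviated from their group means together: the correlation over all genes was 0.27 to 0.65 between the wild type and the pbf1 deletion, 0.21 to 0.46 between the wild type and the pbf2 deletion, and 0.03 to 0.37 between the wild type and the double deletion, 3 pairs each. With that number as a replicate block over all groups the count was 5. It was 1 with the culture as a replicate block, 3 with quantile normalization, 2 with median centring, 1 without replicate 3 of the pbf1 deletion at 20 min and 7 without replicate 1 of the wild type at 20 min, which was the highest wild type array for TRM1, ELP3, GCD10 and TRM11.

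The rest of the pathway was read from 64 further genes in 8 lists. In the wild type heat shock 34 fell and 17 rose, against 29.7% and 51.0% of all genes tested, with a median of -0.28. The rises numbered 11, 13, 8 and 1 with quantile normalization and with median, hybridization control and poly(A) centring, while the falls numbered 40, 40, 39 and 42. In the response difference of the double deletion 22 were higher and 8 lower, against 15.0% and 12.8% of all genes tested, so the count of lower genes was near that share. With hybridization control centring 13 were higher and 3 lower, and with poly(A) centring none passed. The largest fall was that of KRE33, the cytidine acetyltransferase that works with TAN1 and also acts on ribosomal RNA, by 3.74 ± 0.14 (limma adjusted p = 1.54e-15), and it had the largest response difference as well, 2.30 ± 0.20 (limma adjusted p = 3.54e-08). TAN1 itself fell by 0.55 ± 0.06 with a difference of 0.21 ± 0.09 that did not pass the test.

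Of 11 further genes of Elongator and its regulators, 9 fell and 2 rose in the wild type, and 6 had a higher and 1 a lower response in the double deletion. The rises numbered 1 with quantile normalization or median centring and 0 with hybridization control or poly(A) centring, and the responses 3 higher and 0 lower with hybridization control centring. The subunits ELP2 and ELP6 changed by -2.08 ± 0.17 and -1.22 ± 0.06, beside -2.43 ± 0.16 for ELP3, with response differences of 0.71 ± 0.24, which did not pass with hybridization control centring (limma adjusted p = 0.119), and 0.83 ± 0.09. SAP185, a partner of the phosphatase Sit4, differed by 0.75 ± 0.14. For wobble uridine thiolation 3 of 8 genes fell and 3 rose: URM1, the sulfur carrier, fell by 1.55 ± 0.08, with a response difference of 1.35 ± 0.11, while NBP35 and ISU1, which serve iron-sulfur clusters throughout the cell, rose by 1.52 ± 0.08 and 1.39 ± 0.10 (0.51 and 0.38, not past the test, with poly(A) centring).

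Of 11 genes of RNase P and the tRNA ends, 6 fell and 3 rose. The rises numbered 2, 2, 1 and 0 with quantile normalization and with median, hybridization control and poly(A) centring. TRZ1, the endonuclease of the trailing end, fell by 1.52 ± 0.14, and POP5, a subunit of RNase P, fell by 1.38 ± 0.08. The subunit gene RPR2 rose by 1.05 ± 0.16 (0.05, not past the test, with poly(A) centring). The subunit genes POP8 and POP1 had a higher response without both proteins, by 1.27 ± 0.10 and 0.98 ± 0.20. In the wybutosine list PPM2, the last enzyme of the pathway, fell by 1.25 ± 0.21 and differed by 1.05 ± 0.29 (limma adjusted p = 0.0503 with hybridization control centring), and in the list for the threonylcarbamoyl modification SUA5, its first enzyme, fell by 1.03 ± 0.15 and differed by 1.34 ± 0.21.

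Genes of tRNA export and decay moved both ways. RNY1, a vacuolar ribonuclease that can cut tRNA under stress, rose by 3.05 ± 0.13, the largest rise of the 64. RAT1, an exonuclease that degrades undermodified tRNA, fell by 1.07 ± 0.09 and differed by 0.85 ± 0.13, and PAP2, the poly(A) polymerase that marks faulty tRNA for decay, had a lower response, with -0.98 ± 0.14. All 5 genes for mitochondrial tRNA modification and processing rose in the wild type, where 51.0% of all genes tested rose. Their rises ran from 0.35 ± 0.16 for MTO1 to 1.32 ± 0.11 for RPM2, the mitochondrial RNase P protein. Of these, 3 passed with quantile normalization, 4 with median centring, 3 with hybridization control centring and none with poly(A) centring, where 4 turned, to between -0.65 (MTO1) and -0.13 (MSS1), and QRI7 turned to -0.16 with quantile normalization too. Of the 5, RPM2 alone passed for the response in the double deletion, with -0.89 ± 0.16. The plot of lists shows these genes beside the 44.

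**Figure D5:**
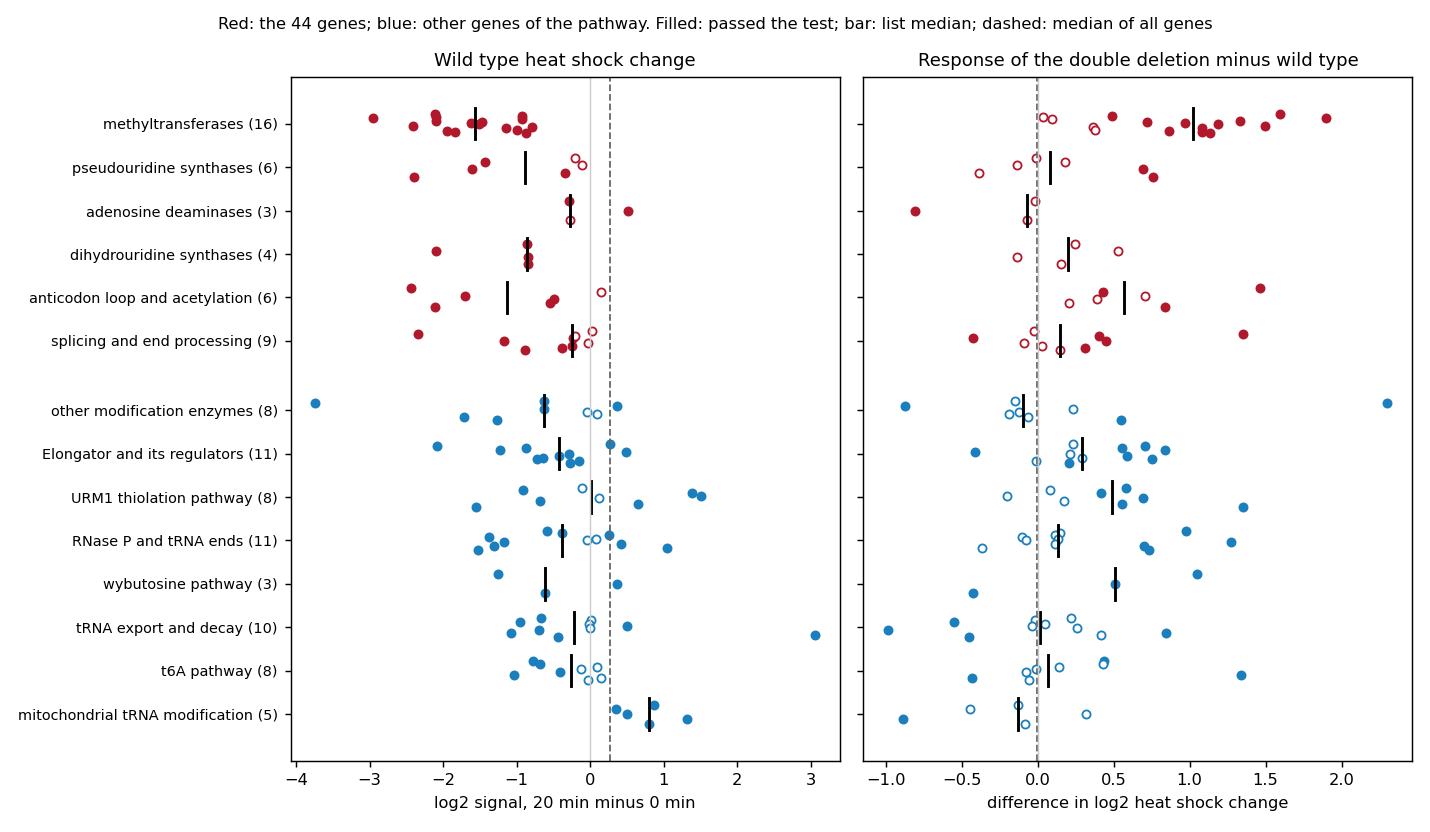
Wild type heat shock change (left) and response of the double deletion minus wild type (right), in log2, for the 44 genes by role (red) and 64 further genes of the pathway by list (blue), with the number of genes in parentheses; filled points passed the test, short bars are list medians and dashed lines the median of all genes tested. All 16 methyltransferase genes lie left of 0 on heat shock, and all 5 mitochondrial genes lie right of it at the authors' scaling, though 4 of these turn with poly(A) centring.

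The authors' deposited table holds its own heat shock ratios for the 44 genes, and the sources used here do not state how they were made. In it 43 of the 44 log2 ratios were negative for the wild type, 43 without PBF1, 43 without PBF2 and 42 without both, with medians of -1.19, -1.26, -1.03 and -0.87.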

How the data were processed

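Messenger RNA was measured on 24 Affymetrix Yeast 2.0 arrays, 3 cultures in each of 8 groups. The authors deposited each probe set's intensity, unlogged and scaled, which the submitters' processing notes credit to MAS5; the mean signal after trimming 2% at each side was 500.3 to 500.4 on every array. The authors' deposited table gives a log2 heat shock ratio for each strain and, for the wild type, a false discovery rate, which is an adjusted p-value, per the file headers; the method behind both is not stated.

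Of 10928 probe sets, 5498 name an S. cerevisiae gene (5449 genes; the brightest probe set was used for 47 genes), and 1746 that name genes of other species gave the background. A signal was above background past the 95th percentile of these on its array, 9.02 to 11.6. Genes with a mean log2 signal above 2.35 were tested (5395). No genome build is named, so no coordinates are given; gene names come from the platform annotation and RefSeq.

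Deposited intensities were put on the log2 scale with no pseudocount and fitted with limma 3.58.1 in R 4.3.3 (lmFit on 8 group means, eBayes with an intensity trend, contrasts tested two-sided on 16 residual degrees of freedom, Benjamini-Hochberg over 5395 genes, threshold 0.05). Tables and plots used Python 3.11.15, numpy 2.4.6, pandas 2.3.3 and matplotlib 3.10.9. The fit was tested on simulated data. Precision is limited by having 3 arrays a group. The 44 genes and the lists beside them were chosen with earlier results of these data known. Arrays were printed for the genes with the largest called changes, by a written rule; NCL1 and TRM5, and most genes named from the 8 further lists, were chosen after their values were seen. Labels pair the times of a culture by number: deviations of same-numbered arrays of a strain correlated at -0.04 to 0.19 (median 0.06, 12 pairs) against a median of -0.04 for other numbers. Alternatives were other scalings, log2 of signal plus 16, all probe sets averaged, other filters, eBayes without trend, fewer arrays, the replicate block and leaving out each array. The number was also tried as a block over all strains, since same-numbered 20 min arrays of the wild type and each single deletion correlated above 0.1 in all 3 pairs; this was chosen after seeing the data.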

Additional observations from a re-analysis of the deposited data

Results flagged for a closer look

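Results were set apart here where a test of the difference between strains passed, that is, where the heat shock response of a deletion strain differed from that of the wild type or from the sum of the single deletions. No group holds more than 3 arrays, so single arrays were not screened as outliers. In the double deletion the response exceeded that of the wild type, in log2, by 1.90 for TRM1, 1.59 for GCD10, 1.50 for TRM3, 1.46 for ELP3, 1.35 for LHP1, 1.33 for TRM11, 1.19 for TRM2 and 1.14 for TRM9. It exceeded it by smaller amounts for the other genes: 1.08 for TRM5, 1.08 for TRM82, 0.97 for TRM13, 0.86 for TRM8, 0.84 for TYW1, 0.76 for PUS7 and 0.72 for TRM112, and 0.70 for PUS4, 0.49 for GCD14, 0.45 for SEN34, 0.43 for MOD5, 0.40 for SEN15 and 0.31 for TPT1. It was below that of the wild type for 2 genes, with -0.42 for SEN2 and -0.81 for TAD2. In the pbf2 deletion it was higher by 0.58 for TRM3 and 0.46 for LHP1. It departed from the sum of the single deletions by 0.94 for TRM9, 0.90 for LHP1, 0.89 for SEN34 and 0.75 for TRM3. In the double deletion, the calls of MOD5, SEN34, SEN15 and TPT1 were lost under some other scalings and without some single arrays. Those of GCD14 and SEN2 were lost with hybridization control centring. The calls for the pbf2 deletion and for the departure from the sum were all lost with hybridization control centring too. With poly(A) centring none of the calls set apart here passed. URA3, AGA2 and MFA1 signal moves with the strains, and the part of these genes was not tested. Replicate number is balanced over the strains. Some same-numbered arrays of different strains deviated together, and a replicate block for that number was tried in the fit.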

How the results depend on the processing

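No called fall turned under any alternative tried: leaving out 1 array at a time gave 35 to 37 falling genes of 44 in the wild type, 35 to 37 in the pbf1 deletion, 34 to 36 in the pbf2 deletion and 30 to 36 in the double deletion. For the response difference, leaving out 1 array gave 0 to 0 higher genes in the pbf1 deletion, 1 to 7 in the pbf2 deletion and 17 to 22 in the double deletion, with 0 to 0, 1 to 8 and 19 to 24 in both directions together. The departure from additivity gave 3 to 5 in both directions; against the wild type before heat shock it gave 0 to 0, 0 to 0 and 10 to 17, and after it 0 to 7, 7 to 22 and 30 to 31, in both directions and in the order pbf1, pbf2 and double deletion. Centring on the hybridization controls gave 0 for the pbf2 response difference (8 at an unadjusted p under 0.05), 0 for the departure (5), and 6 for the double deletion at 0 min. Poly(A) centring gave 0 for the pbf2 response difference (0 at an unadjusted p under 0.05), 0 for that of the double deletion (6), 0 for the departure (0), 0 for the double deletion at 0 min (8), 0 for the pbf2 deletion at 20 min (2), and 15 for the double deletion at 20 min. Single genes that turned were TAD2, to -0.49 in the wild type and -0.88 in the pbf1 deletion, and MOD5, to -0.18 in the pbf2 and -0.57 in the double deletion, all with the poly(A) centring, and TRM9 in the double deletion, to -0.88 with it and -0.0055 with the hybridization centring; the cause was not tested. For the pbf1 deletion at 20 min quantile normalization gave 3 and median centring 2. With only the arrays compared in the fit, which leaves fewer arrays to estimate the spread, the pbf2 response difference gave 1 and the pbf2 deletion at 20 min 4. The replicate block for the culture gave 4 for the pbf2 response difference and 1 for the pbf1 deletion at 20 min, ended both calls of SEN34, which centring on other levels ended too, and moved no other count over 1.5 times. A replicate block for the number shared over all groups was chosen after seeing the data: same-numbered arrays of different groups correlated in their deviations at -0.14 to 0.65 (median 0.07, 84 pairs), and those at 20 min at 0.03 to 0.65 (median 0.30, 18 pairs), and the counts became 7 for the pbf2 response difference, 9 for the departure, 5 for the pbf1 and 19 for the pbf2 deletion at 20 min. Signal limits no gene of the 44, all above background on every array; 3 arrays a group limit the small differences.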
